A study of Mus musculus with 7 samples.

Results

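Runx3-bound and H3K4me1-marked regions were examined at the loci of Zfp36, Zfp36l1 and Zfp36l2, the mouse genes of the Zfp36 family of mRNA-decay factors that are used outside the placenta. A region belonged to a locus when its midpoint lay in the gene body or within 50 kb of it in the GENCODE annotation of mm9. This gave 5 of 4934 Runx3-bound regions and 45 of 76705 H3K4me1-marked regions. The genes were chosen by the width of a Runx3-bound region near Zfp36l2, among the widest of its list, and with both lists known, so region numbers and widths at these loci are given as descriptions without a test.

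The regions came from ChIP-seq of resting CD8-TC, the cytotoxic T lymphocytes, from spleens of WT ICR mice. The age of the mice was not given in the sources used here. Cells of 18 mice were collected with anti-CD8 magnetic beads at over 95% purity, left unstimulated, fixed in formaldehyde and frozen. The Runx3 group (3 libraries of 2 biological repeats) used an in-house rabbit polyclonal antiserum, the H3K4me1 group (2 libraries) a monoclonal antibody to the monomethyl form of lysine 4 of histone H3, and the control group (2 libraries) non-immune rabbit serum (NIS). Each list was called on joined repeats against the joined NIS libraries, so no value below has a replicate error, and both lists share their control. The lists hold positions alone, without height, score or read count, so how many reads lie behind any region is unknown here. Positive selection does not separate CD8-TC from other cells that carry CD8.

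As a check of the labelled cell type, each of the 5 T-cell genes Cd8a, Cd8b1, Cd3e, Cd3d and Cd3g had 3 to 5 H3K4me1-marked regions within 5 kb, and 4 of the 5 had a Runx3-bound region. Of markers of other cells, Ncr1 (natural killer cells) and Lyz2 (myeloid cells) had 0 regions of either list. The B-cell genes Cd79a and Ms4a1 had 5 and 6 H3K4me1-marked regions, and Csf1r (myeloid cells) had 3, all with 0 Runx3-bound regions. Cd4 had 4 H3K4me1-marked regions, with 1 Runx3-bound region. H3K4me1 covered 34.9 to 50.4% at the T-cell genes, 63.4% at Cd79a and 26.1% at Ms4a1. The mark alone thus did not separate T-cell from B-cell genes. A part of other spleen cells in the regions below was not tested.

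Zfp36 family proteins carry a pair of CCCH zinc fingers that grip AU-rich elements of short-lived mRNAs. They then recruit the CCR4-NOT complex, which removes the poly(A) tail, and decapping enzymes and exonucleases degrade the message. Zfp36 encodes tristetraprolin, an immediate-early gene product best known for limiting Tnf mRNA. Zfp36l1 (also called Brf1 or Tis11b) and Zfp36l2 (Brf2 or Tis11d) act together in developing lymphocytes, where their joint loss leads to Notch1-driven leukaemia. In T cells the family restrains cytokine mRNAs and activation. Runx3 binds the RUNX motif as a heterodimer with Cbfb, often beside ETS factors. H3K4me1 marks enhancers and the flanks of active promoters.

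The 5 Runx3-bound regions took a different position at each gene. Zfp36 had 3, all upstream. Zfp36l1 had 1, which covered its transcription start site (TSS). Zfp36l2 had 1, downstream of the gene. Among all 22350 protein-coding genes of chromosomes 1 to 19 and X, 30.8% had at least 1 Runx3-bound region in such a window and 3.57% had at least 3. The genes of the family are short (2472, 5254 and 4017 bp for Zfp36, Zfp36l1 and Zfp36l2), and a window grows with the gene body. Among the 8856 genes with a body of at most 10 kb these shares were 24.8% and 2.2%. The number 3 at Zfp36 includes 2 regions only 6 bp apart. With neighbours within 1000 bp merged Zfp36 had 2, and exactly 2 regions, without merging, were found for 6.55% of protein-coding genes. The remaining gene of the family, Zfp36l3, which is placental and found in rodents, lies on chromosome X (51075863 to 51079571). It had 0 Runx3-bound and 0 H3K4me1-marked regions in its window, as did 19.4% of protein-coding genes and 32.4% of those of at most 10 kb. With H3K4me1 alone, 20.7% and 34.2% had 0 regions. The H3K4me1-marked region nearest to its TSS lay 356623 bp away.

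**Figure D1:**
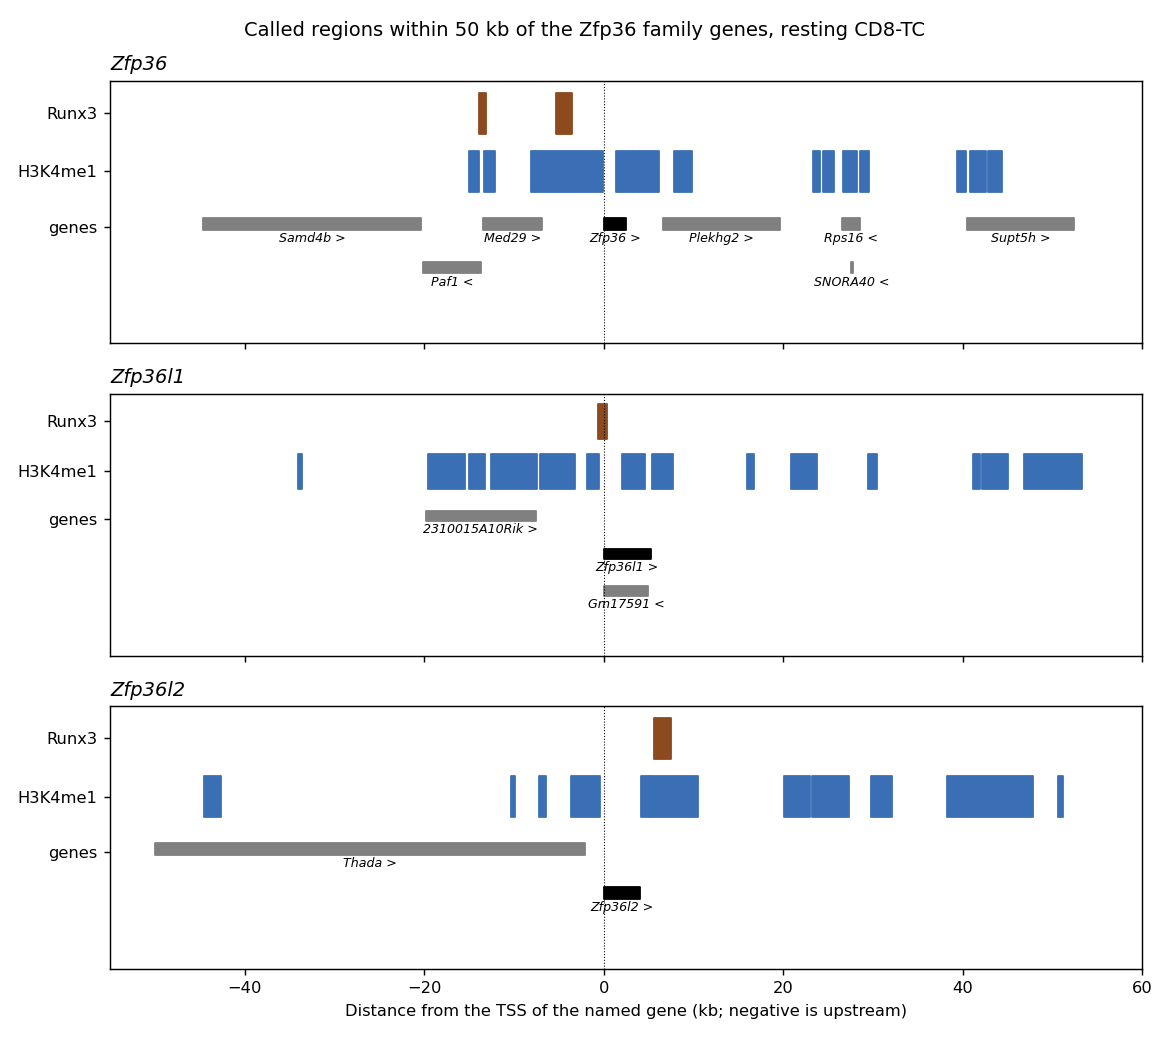
Runx3-bound (brown) and H3K4me1-marked (blue) regions whose midpoint lies within 50 kb of the gene body, by distance from the TSS in kb, with annotated genes below (> the same strand as the named gene, < the opposite strand). Zfp36 shows 3 Runx3-bound regions upstream, with regions 1 and 2 only 6 bp apart and drawn as 1 block, Zfp36l1 shows 1 over the TSS, and Zfp36l2 shows 1 downstream of the gene.

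The sequences of these regions are shown because the RUNX motif is the letter pattern that the factor recognises. It was searched on both strands as TGTGGT or, with another base at the third or the last letter, as TGTGGC, as TGCGGT and as TGCGGC. They were read from the plus strand of the mm9 reference genome, not from the ICR mice. Capitals mark RUNX motifs of either strand, those of the minus strand as their reverse complement. The window is the 200 bp around the midpoint, or 300 bp for the wide region of Zfp36l2. The stretch between the exons of Med29 and Paf1 stands for Zfp36 region 3. Runs of at least 3 RUNX motifs within 150 bp are added with 10 bp on each side. At least 1 RUNX motif was found in 88.8% of whole Runx3-bound regions and in 73.3% of windows of the same widths 5 kb to each side. In 200 bp around the midpoint it was found in 66% of regions and in 27.8% of windows 5 kb away, and in 300 bp in 76% of regions. Midpoint windows as long as the runs and as the stretch at Med29 (123, 127 and 242 bp) held it in 50.6%, 51.5% and 70.7% of regions.
Zfp36 region 1, midpoint, chr7:29168161-29168360: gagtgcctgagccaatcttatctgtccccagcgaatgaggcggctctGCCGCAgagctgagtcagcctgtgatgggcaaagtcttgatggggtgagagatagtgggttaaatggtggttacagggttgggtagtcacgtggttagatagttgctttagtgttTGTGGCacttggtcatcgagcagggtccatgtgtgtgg
Zfp36 region 1, motif run, chr7:29167877-29167999: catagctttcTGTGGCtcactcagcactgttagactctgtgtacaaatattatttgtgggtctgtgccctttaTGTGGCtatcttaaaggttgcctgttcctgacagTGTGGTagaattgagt
Zfp36 region 2, midpoint, chr7:29169031-29169230: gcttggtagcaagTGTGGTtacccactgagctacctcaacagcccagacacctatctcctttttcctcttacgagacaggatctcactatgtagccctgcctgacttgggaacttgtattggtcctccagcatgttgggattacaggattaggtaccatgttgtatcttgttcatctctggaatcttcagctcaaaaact
Zfp36 region 2, motif run, chr7:29169319-29169445: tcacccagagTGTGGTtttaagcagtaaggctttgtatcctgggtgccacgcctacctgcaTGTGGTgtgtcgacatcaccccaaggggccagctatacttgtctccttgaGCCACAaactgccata
Zfp36 region 3, between Med29 and Paf1, chr7:29177728-29177969: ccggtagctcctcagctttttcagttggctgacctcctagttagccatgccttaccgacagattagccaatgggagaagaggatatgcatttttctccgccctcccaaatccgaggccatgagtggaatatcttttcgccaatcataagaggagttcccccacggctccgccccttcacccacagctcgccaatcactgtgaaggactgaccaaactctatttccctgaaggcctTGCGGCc
Zfp36l1, promoter, chr12:81214042-81214241: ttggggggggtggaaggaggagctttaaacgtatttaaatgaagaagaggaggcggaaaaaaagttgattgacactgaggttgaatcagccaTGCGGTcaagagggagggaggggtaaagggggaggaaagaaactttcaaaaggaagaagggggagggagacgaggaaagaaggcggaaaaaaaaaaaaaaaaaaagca
Zfp36l2, downstream, chr17:84580572-84580871: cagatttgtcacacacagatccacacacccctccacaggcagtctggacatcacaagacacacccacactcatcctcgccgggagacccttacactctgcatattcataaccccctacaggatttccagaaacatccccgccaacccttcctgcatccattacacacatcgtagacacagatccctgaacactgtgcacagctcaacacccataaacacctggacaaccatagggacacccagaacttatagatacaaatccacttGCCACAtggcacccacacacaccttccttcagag

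Zfp36 lies on the minus strand of chromosome 7 (29161803 to 29164274). Its first Runx3-bound region (chr7:29167789-29168732, 944 bp) had its midpoint 3986 bp upstream of the TSS, and the second (chr7:29168739-29169521, 783 bp) 4856 bp upstream. Both were intergenic and nearest to the TSS of Zfp36. Only 6 bp separated them. A neighbour at most 10 bp away was found for 0.0811% of Runx3-bound regions and one at most 1 kb away for 3.91%. Merging neighbours within 1000 bp would make them 1 region. Both were wholly covered by a single H3K4me1-marked region of 7534 bp, which ran from 92 to 7625 bp upstream of the Zfp36 TSS. A width of at least 7534 bp was reached by 0.919% of H3K4me1-marked regions.

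Region 1 of Zfp36 held 8 RUNX motifs, a number reached by 1.42% of Runx3-bound regions. They were 2 of the form TGTGGT, 3 of the form TGTGGC and 3 of the form TGCGGC, from 371 bp before to 281 bp after the midpoint. The printed run holds the first 3 of them. Per length the region had 8.47 RUNX motifs per kb, where 1.05% of regions had as many and the median of all was 2.77. Region 2 held 4 RUNX motifs, of which 3 were TGTGGT and the other was TGTGGC, a number that 25.8% of regions reached, and 3 of these lay in the printed run between 202 and 302 bp after the midpoint. Runs of at least 3 RUNX motifs within 150 bp occurred in 16.2% of all Runx3-bound regions. RUNX-RUNX pairs at most 50 bp apart numbered 1 and 2 in these regions, and 34.3% of regions had such a pair. Each region also held 1 AP-1 motif, TGACTCA on one strand and thus TGAGTCA on the other, counted once, a motif found in 16.5% of regions and in 14.4% of windows of the same widths 5 kb to each side. In region 1 the AP-1 motif lies 40 bp before the midpoint, a few bases after the TGCGGC of the minus strand, and can be read as tgagtca in the midpoint window. ETS motifs, searched on both strands as AGGAAA or AGGAAG and, with C as the first letter, as CGGAAA or as CGGAAG, numbered 2 and 1 in these regions, numbers that 81.3% and 95% of regions reached. At least 1 was present in 88.4% of the windows 5 kb away.

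The third Runx3-bound region in the Zfp36 window (chr7:29177324-29178183, 860 bp) lay 13480 bp upstream of Zfp36, but only 26 bp from the TSS of Med29, which encodes a subunit of the Mediator complex. It contained the start sites of both Med29 and Paf1, a component of the PAF elongation complex, which are transcribed away from each other. It touched an H3K4me1-marked region at each end and was covered to 36.3%, and its midpoint was unmarked. It held 3 RUNX motifs and 3 ETS motifs, which formed 3 ETS-RUNX pairs at most 50 bp apart. In the printed stretch between the genes the motif TGCGGC stands at the end next to Paf1. This region thus belonged to the Zfp36 locus by the distance rule, while its nearest genes were Med29 and Paf1. Regions 1 and 2 also lay in the windows of 6 other protein-coding genes, Med29, Paf1, Plekhg2, Rps16, Samd4b and Supt5h.

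Zfp36l1 lies on the minus strand of chromosome 12 (81208747 to 81214000). Its Runx3-bound region (chr12:81213659-81214623, 965 bp) reached from 623 bp upstream to 341 bp downstream of the TSS, with its midpoint 141 bp upstream. It and the region at Med29 had midpoints less than 1 kb from a TSS, as 20.7% of Runx3-bound regions did. A TSS inside a Runx3-bound region was found for 3.05% of protein-coding genes. No other protein-coding gene had this region in its window. Of its 3 RUNX motifs 2 were TGCGGT and the other was TGCGGC, and none was TGTGGT or of the form TGTGGC. Of the 4379 Runx3-bound regions with a motif, 5.59% held only TGCGGT or TGCGGC, and of the 957 less than 1 kb from a TSS 16.4% did so. The TGCGGT of the printed window lay 4 bp from the midpoint and 136 bp upstream of the TSS. The median distance from midpoint to nearest motif was 48 bp over all regions with a motif.

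The promoter region of Zfp36l1 also held 7 ETS motifs, or 7.25 per kb, a density reached by 8.9% of Runx3-bound regions. In the printed window 5 of them stand around the TGCGGT, all read on the plus strand. Of these, 3 lay within 50 bp of it. Over the whole region there were 4 ETS-RUNX pairs, the last of them upstream of the printed window. Pairs of this kind occurred in 58.6% of all Runx3-bound regions. H3K4me1 covered 10.3% of the region, at its upstream end, and the midpoint was unmarked. RefSeq promoter sequences of 300 bases (GRCm38, 250 before and 50 after the start) listed Zfp36, Zfp36l1 and Zfp36l3 once each and held 1, 2 and 0 RUNX motifs, where 45.2% of all 32851 promoters held at least 1.

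Zfp36l2 lies on the minus strand of chromosome 17 (84583271 to 84587287). Its Runx3-bound region (chr17:84579720-84581723) measured 2004 bp, the ninth widest of the list, and 0.182% of regions were at least as wide. In all, 10 regions (0.203%) reached 2000 bp. The median width was 851 bp. The midpoint lay 2549 bp beyond the end of the gene body, 6566 bp downstream of its TSS and 5755 bp from the nearest annotated Zfp36l2 transcript start, in intergenic sequence. It also lay in the window of 1 other protein-coding gene, Thada. It was wholly covered by an H3K4me1-marked region of 5381 bp, as were 50.6% of Runx3-bound regions. The wide region held 4 RUNX motifs, spread from 605 bp before to 847 bp after the midpoint, or 2 per kb, a density that 65.9% of regions reached, against a median of 2.77. No RUNX motif lay in the 200 bp around its midpoint, and the nearest, a TGTGGC of the minus strand, was 119 bp away. It held 15 ETS motifs, or 7.49 per kb. A count of at least 15 occurred in 0.426% and a density as high in 7.54% of Runx3-bound regions. The midpoint window holds 2 of the ETS motifs, both on the minus strand, and the whole region also holds AGGAAG on the plus strand.

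**Figure D2:**
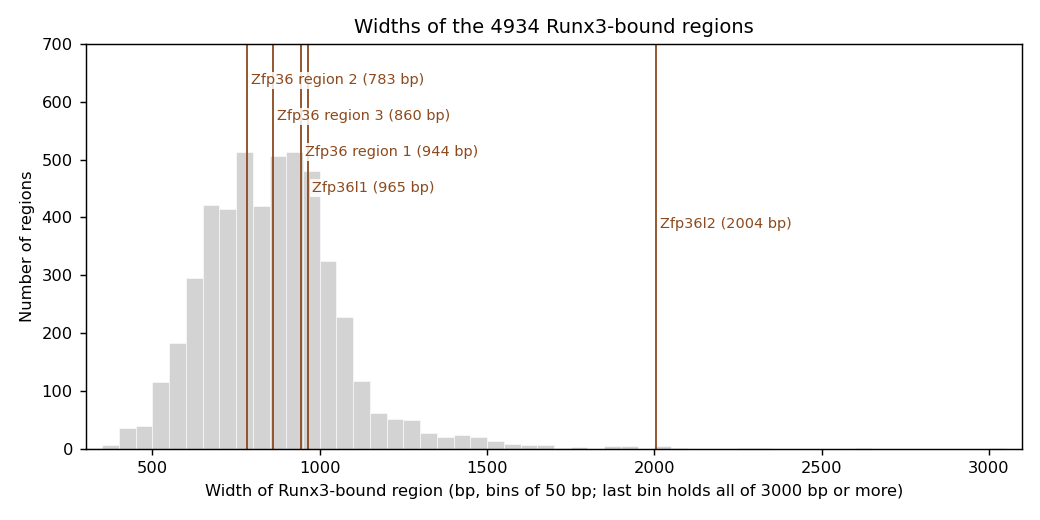
Widths in bp of the 4934 Runx3-bound regions in bins of 50 bp (grey bars, number of regions, with widths of 3000 bp or more, up to 5232 bp, in the last bin), with the 5 regions of the Zfp36 family as brown lines. The regions of Zfp36 and Zfp36l1 measure 783 to 965 bp, within the bulk of the list, and that of Zfp36l2 measures 2004 bp, in its upper tail.

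Across the family, the 5 regions held 22 RUNX motifs. TGTGGT made up 6 (27.3%), TGTGGC 8 (36.4%), TGCGGT 3 (13.6%) and TGCGGC 5 (22.7%). Of the 12570 motifs in all Runx3-bound regions, these forms made up 52.3%, 31%, 9.39% and 7.27%. Motifs of the same region share their sequence context and are not independent. The regions held 3, 3, 4, 4 and 8 motifs. At least 3 were held by 45.4% of the list and at least 2 by 69.1%. The number 3 is the lowest of these regions and was set after their values were seen, and motif numbers grow with width, so nothing is read from this count. GC content was 47.1 to 60.1%, with a median of 53.6% against 45.9% for all Runx3-bound regions and 53.6% for those less than 1 kb from a TSS. The plot of motif positions shows the spread within the family. Region 1 of Zfp36 held more RUNX than ETS motifs, with an ETS density that 77.3% of regions reached. Region 2 of Zfp36 also held more RUNX (4) than ETS motifs (1), and region 3 held 3 of each. The regions of Zfp36l1 and Zfp36l2 held more ETS than RUNX motifs, which is also the order of the medians over all Runx3-bound regions (3 ETS and 2 RUNX motifs).

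**Figure D3:**
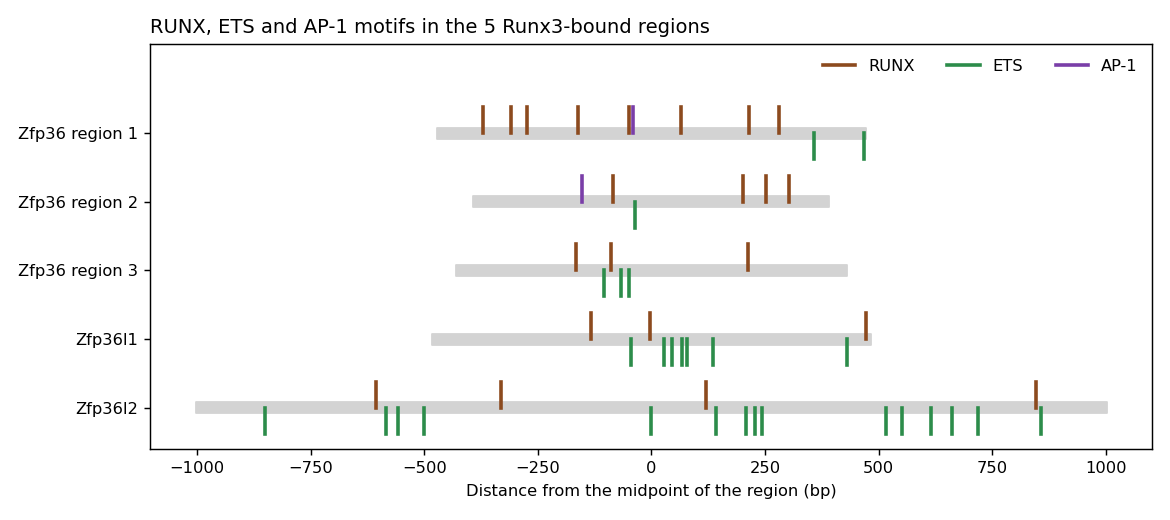
Positions of RUNX, ETS and AP-1 motifs by distance in bp from the midpoint of each Runx3-bound region (grey bars to scale). Region 1 of Zfp36 holds 8 RUNX and 2 ETS motifs, and the region of Zfp36l2 holds 4 RUNX and 15 ETS motifs.

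Each of the 5 regions overlapped H3K4me1 by at least 1 bp (100%, exact Clopper-Pearson 95% interval 47.8 to 100%), against 78.8% of all Runx3-bound regions. Intervals cover counting error over regions only, and regions 1 and 2 of Zfp36 lie next to each other. The overlap was of unequal kind. Regions 1 and 2 of Zfp36 and the region of Zfp36l2 were wholly inside the mark. The promoter regions, at Med29 and Paf1 and at Zfp36l1, were touched at their edges. With the midpoint required inside the mark, 3 of 5 counted (60%, exact interval 14.7 to 94.7%), against 66.1% of the list. With 50% or more of the width covered the same 3 counted, against 68.8%.

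The enhancer mark was more plentiful than Runx3 at all 3 loci, as in the lists as a whole. Zfp36 had 16 H3K4me1-marked regions, 4 of them upstream of the TSS, of 410 to 7534 bp. Most of these were nearest to the TSS of another protein-coding gene (Supt5h, Rps16, Plekhg2, Med29 or Paf1), and the rest to that of Zfp36. Numbers of at least 16 were found for 16.8% of protein-coding genes. Zfp36l1 had 17, of 456 to 6456 bp, and 14.1% of genes had as many. Zfp36l2 had 12, of 451 to 8150 bp, and 30.1% of genes had as many. All marked regions in the windows of Zfp36l1 and Zfp36l2 were nearest to their own gene. The median gene had 7, and the median gene with a Runx3-bound region in its window, as these have, had 13, which is above the 12 of Zfp36l2. Among genes of at most 10 kb, as many were found for 11.3%, 8.92% and 23.1%, in the order Zfp36, Zfp36l1 and Zfp36l2. The covered share of the window was 24.9% for Zfp36, 34.2% for Zfp36l1 and 31% for Zfp36l2, against a median of 5.96% over protein-coding genes. Shares as high were found for 7.46%, 2.32% and 3.52% of them in the same order, and for 7.97%, 2.66% and 3.77% of genes of at most 10 kb. Genes with a Runx3-bound region in their window, as these are, had a median of 13.7%.

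The mark was laid out differently at each locus. At Zfp36 its widest region was the upstream one that holds Runx3. The next widest, of 2571 and 1927 bp, lay downstream of the gene and in coding sequence of Plekhg2. At Zfp36l1 both sides were marked to a like extent, 33.1% upstream and 34% downstream. The widest regions measured 6456 bp (50076 bp downstream of the TSS, inside the window because it is counted from the gene body), 5139 bp (9993 bp upstream) and 4121 bp (17539 bp upstream). The last pair lay in the lincRNA gene 2310015A10Rik. None of these overlapped Runx3. At Zfp36l2 the downstream side was covered to 51.6% and the upstream side, occupied by the neighbouring gene Thada, to 12.9%. Its widest regions were 8150 bp (43766 bp downstream), the 5381 bp region with Runx3, and 4174 bp (25298 bp downstream). The overlap with Runx3 involved 3 of the 16 marked regions at Zfp36, 1 of 17 at Zfp36l1 and 1 of 12 at Zfp36l2, together 11.1% against 5.49% of the list. The rule used both lists, so nothing is read from this share.

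At all 3 genes the TSS itself lay in an unmarked stretch between marked regions. At Zfp36 this stretch was 1443 bp, from 92 bp upstream to 1352 bp downstream of the TSS. At Zfp36l1 it was 2565 bp, and the mark resumed 525 bp upstream and 2041 bp downstream. At Zfp36l2 it was 4569 bp, from 406 bp upstream to 4164 bp downstream, so that 0% of the gene body was covered, as for 37.6% of protein-coding genes. The body was covered to 45.3% at Zfp36 and 46.5% at Zfp36l1. An unmarked TSS with H3K4me1 within 5 kb on both sides was found for 31.2% of protein-coding genes, and for 43.7% of the 6883 genes with a Runx3-bound region in their window. Over all protein-coding genes the covered share was 37.6% at 500 bp upstream, 17.7% at the TSS and 40.7% at 900 bp downstream. The lists cannot tell an unmarked stretch from one just under the calling threshold.

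**Figure D4:**
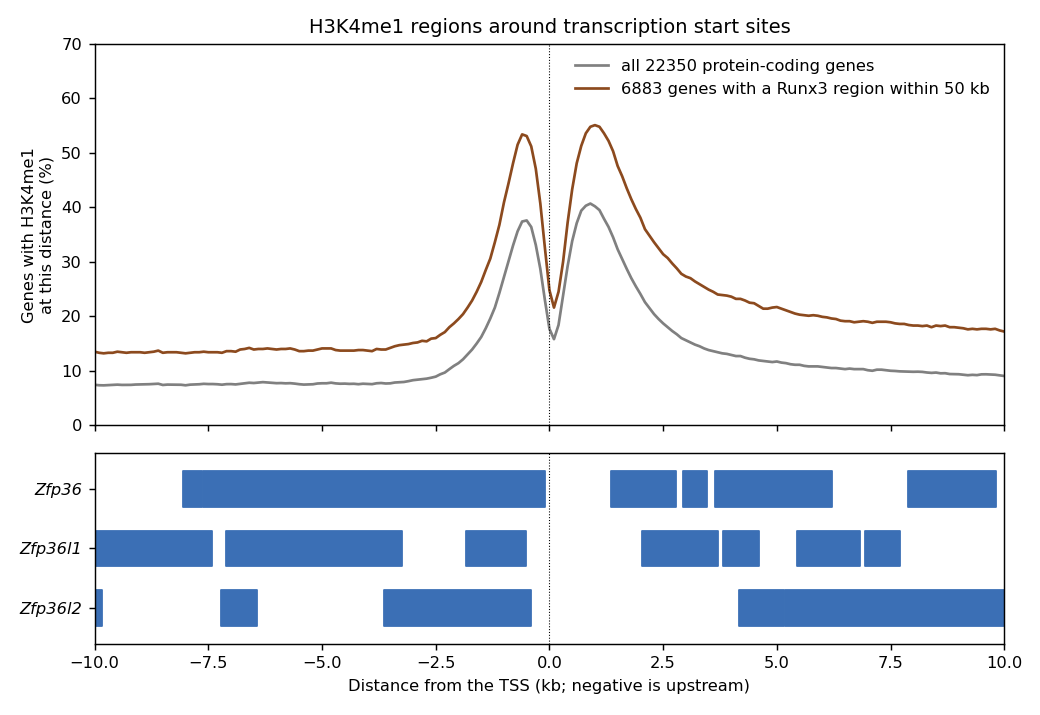
Above, the percent of protein-coding genes with an H3K4me1-marked region at each distance from the TSS, in kb, for all genes (grey) and for genes with a Runx3-bound region in their window (brown). Below, the H3K4me1-marked regions (blue) of the 3 genes, each with the TSS in a gap of 1443, 2565 or 4569 bp.

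The limit of 50 kb left the Runx3 picture at Zfp36 alone, since the next Runx3-bound region lay 402046 bp from the gene. At Zfp36l1 the next was 98369 bp upstream, in an intron of Actn1 (chr12:81311896-81312842). At Zfp36l2 the next lay just outside the limit, 53885 bp from the gene (chr17:84640852-84641493, 642 bp), in an intron of Thada. The surroundings of Zfp36l2 held 3 Runx3-bound regions between 50 and 100 kb and 7 between 100 and 250 kb. As many were found for 1.63% and 0.425% of protein-coding genes, numbers compared after the values of Zfp36l2 were seen. Zfp36 had 0 and 0 at these distances and Zfp36l1 1 and 1, where 23.9% and 47.9% of protein-coding genes had at least 1. Of the 10 at Zfp36l2, 7 were in introns of Thada and 3 in the intergenic stretch on the other side of Zfp36l2, at 68272, 71282 and 183505 bp downstream of its TSS. Each overlapped H3K4me1, as 78.8% of the list did, and held 1 to 9 RUNX motifs. With a limit of 100 kb Zfp36l2 would have 4 Runx3-bound regions, Zfp36 3 and Zfp36l1 2.

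Genes with the most similar numbers were found by the Euclidean distance over the log2 of 1 plus the number of Runx3-bound regions, of H3K4me1-marked regions and of covered kb. Each locus gives 1 value per quantity, and genes whose windows overlap were left out. Closest to Zfp36 (3, 16 and 25.5 kb) were Dact3 (distance 0.019), Brwd1 (0.022) and Pgap2 (0.057). Closest to Zfp36l1 (1, 17 and 36 kb) were Ppp1cc (0.003), Tbc1d2 (0.010) and Gm11006 (0.035). Closest to Zfp36l2 (1, 12 and 32.2 kb) were 4632415K11Rik (0.029), Ccdc50 (0.032) and Elf4 (0.065).

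The partners of the family were examined with a list of 64 other genes of mRNA decay, each found in the annotation, with Cnot9 under the older symbol Rqcd1 and Cnot11 as D1Bwg0212e. At least 1 Runx3-bound region lay in the window of 22 of them (34.4%, exact interval 22.9 to 47.3%), against 30.8% of protein-coding genes. All 64 had an H3K4me1-marked region, as did 79.3% of protein-coding genes. At least 3 lay in the window of 3 of the 64 (4.69%), Btg1, Exosc4 and Celf2, against 3.57% of protein-coding genes, a share near the background. Of the 18 genes of deadenylation 7 had Runx3 (38.9%). Btg1, an antiproliferative factor that recruits deadenylases, had 5 regions, 1 of them in its body and all with H3K4me1. Its relative Btg2 had 2, Cnot3, a subunit of CCR4-NOT, had 2, and Cnot2, Cnot4, Pan2 and Pan3 had 1 each. Cnot1, the scaffold of the complex that Zfp36 proteins contact, and the deadenylase genes Cnot6, Cnot6l, Cnot7 and Cnot8 had 0.

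Of the 19 genes of decapping and exonucleases 6 had Runx3 (31.6%, exact interval 12.6 to 56.6%). The exact interval of each group of the list, here and in the following, holds the 30.8% of all protein-coding genes. Exosc4, a subunit of the RNA exosome, had 4 regions, the nearest 240 bp from its TSS. Xrn1, the exonuclease that degrades decapped mRNA, had 1, and the decapping genes Dcp1a, Dcp1b and Dcp2 had 0. Of the 14 genes for other RNA-binding regulators 6 had Runx3 (42.9%, 17.7 to 71.1%). Celf2 had 3, all in its body of 541598 bp, Khsrp, another AU-rich element binder, had 2, and Tial1 had 1 only 46 bp from its TSS. Elavl1, which stabilises AU-rich mRNAs, and the mRNA-destabilising Zc3h12a, Rc3h1 and Rc3h2 had 0. The 4 kinase and phosphatase genes that act on the family (Mapkapk2, Mapk14, Dusp1 and Ppp2ca) had 0, a number whose exact interval reaches 60.2%. Of 9 genes whose mRNAs are known AU-rich targets 3 had Runx3 (33.3%, 7.49 to 70.1%). Tnf had 2 regions, and Ifng and Csf2 had 1 each. Il2, Il3, Myc, Notch1, Ccnd1 and Cdkn1a had 0. The number depended on the window. Within 20 kb 21.9% of the 64 genes had Runx3 (19.8% of protein-coding genes), and within 1 kb of a TSS 6.25% (4.59%).

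**Figure D5:**
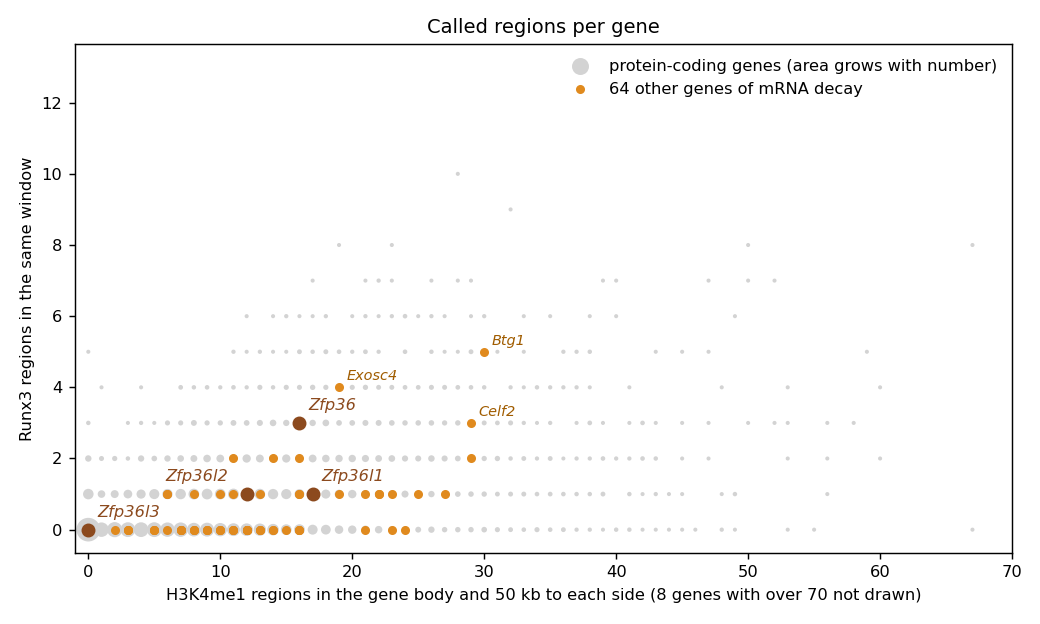
Number of Runx3-bound against number of H3K4me1-marked regions in the gene body and 50 kb to each side, for protein-coding genes (grey, without 8 genes beyond the axis end of 70), 64 other genes of mRNA decay (orange) and the Zfp36 family (brown). Zfp36 stands at 16 and 3, Zfp36l1 at 17 and 1, Zfp36l2 at 12 and 1 and Zfp36l3 at 0 and 0, and Btg1 has the most Runx3-bound regions of the decay genes, 5.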

How the data were processed

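ChIP-seq libraries of resting splenic CD8-TC were made with anti-Runx3, anti-H3K4me1 and NIS. Per the labels, chromatin was sheared to about 300 bp and 40 to 42 bp were sequenced per read, with alignment to mm9 by ELAND (CASAVA 1.6 and 1.7 in the submitters' processing notes). The authors kept unique alignments, joined repeats, scaled the larger data set to the smaller and called regions with MACS 1.4. The deposited lists hold chromosome, start and end, in bp.

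Starts were moved by 1 bp to the browser convention. Chromosome lengths of the NCBIM37 genome contained all regions. Midpoints were compared with gene bodies extended by 50 kb, and overlap required at least 1 bp. Motifs were searched on both strands. No test was made: shares of all protein-coding genes or regions stand beside the main counts. Genes, lists and rules were chosen with earlier results of these data known, and the unmarked stretch at the TSS, the motif runs, the regions beyond 50 kb, the minimum of 3 motifs and the windows printed were chosen after values were seen. Named were every Runx3-bound region, the 3 widest H3K4me1-marked regions of each locus, the 3 most similar genes, and decay genes with at least 3 Runx3-bound regions; other decay genes were named afterwards. A marker gene of the cell type check is not reported here. Counting and motif functions were tested on simulated regions and sequences. Computations used Python 3.11.15, numpy 2.4.6, scipy 1.17.1 and matplotlib 3.10.9. Alternatives were windows of 20 and 100 kb, the gene body alone, any shared base, wider regions alone, merged neighbours, stricter overlap, motif windows of 200 and 300 bp, protein-coding starts alone, and, added afterwards, genes of at most 10 kb.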

Additional observations from a re-analysis of the deposited data

How the results depend on the processing

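Of 51 alternative values for 14 results, 29 stayed near the reported value (counts and covered shares within 1.5 times, other shares within the 95% interval of the reported share) and 22 moved, none with a test. No paired analysis was possible because the repeats had been joined before regions were called, and no repeat could be left out for the same reason. With the gene body alone, Zfp36, Zfp36l1 and Zfp36l2 had 0, 0 and 0 Runx3-bound and 1, 2 and 0 H3K4me1-marked regions. Within 20 kb Zfp36 had 8 and Zfp36l2 6 H3K4me1-marked regions. Within 100 kb the numbers were 27 for Zfp36, 27 for Zfp36l1 and 30 for Zfp36l2, and the Runx3-bound regions were 2 for Zfp36l1 and 4 for Zfp36l2. Regions at or above the median width left 10 H3K4me1-marked regions at Zfp36 and 9 at Zfp36l1, and merging neighbours within 1000 bp left 7 and 9. Merging also took the Runx3-bound regions of Zfp36 from 3 to 2, which still counts as near because the limit is 1.5 times. The share of decay genes with Runx3 was 21.9% within 20 kb, 53.1% within 100 kb (44.1% of protein-coding genes), 6.25% within 1 kb of a TSS, and 50% of the 16 genes with a body of at most 10 kb (exact interval 24.7 to 75.3%, which holds the 24.8% of protein-coding genes of that size). The share of the 5 regions that overlap H3K4me1 was 100% with 1 shared bp and 60% with the midpoint inside or with 50% of the width covered, and the share with a RUNX motif was 100% over whole regions and 80% in 200 bp. Both count among the 29 because 5 regions leave wide intervals, so the tally cannot show that these shares are stable. The H3K4me1-covered shares stayed close to the reported values with regions at or above the median width, their only alternative. The number near a TSS was unchanged with protein-coding starts alone, its only alternative. The joined calls and the lack of scores limit every value to positions and widths, and a region missing from a list may lie just under the calling threshold.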
